A study of Mus musculus with 2 samples.

Results

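Nuclear genes for the mitochondrial ribosome, the respiratory complexes and mitochondrial protein import were compared between 2 clones of mouse mesoangioblasts, D16 and D351. The members were all probe sets with exactly 1 annotated gene symbol beginning with Mrpl, Mrps, Nduf, Sdh, Uqcr, Cox and a digit, Atp5, Timm or Tomm, leaving out genes between Acer2 and Svbp on chromosome 4. This name rule found 60 of the 12477 probe sets, which stood for 51 of 7542 genes, and 0 candidates lay in the left-out stretch. A further 3 probe sets were annotated to several such genes and were not members. Mesoangioblasts are vessel-associated progenitor cells of the embryo that can enter several mesodermal lineages, including smooth muscle. Both groups were clones from C57BL6 dorsal aorta taken at embryonic day 9.5. Per the labels, the tissue was held 5 days as an explant and cloned at limiting dilution in RPMI with 20% fetal calf serum, over mitomycin C-treated primary embryonic fibroblasts, before expansion on gelatin. The labels record no treatment or genetic change in either clone, and each clone was 1 line measured on 1 Affymetrix U74B array of total RNA, so no difference could be tested against the spread between cultures.

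Mitochondria build adenosine triphosphate by passing electrons along complexes I to IV of the inner membrane and using the resulting proton gradient at complex V. A few subunits are encoded in mitochondrial DNA and translated by a dedicated mitochondrial ribosome, whose proteins are all made from nuclear genes. The other proteins enter from the cytosol through the TOM complex of the outer membrane and the TIM complexes of the inner membrane.

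The promoters of some of these genes hold short words recognised by nuclear respiratory factor 1 (NRF1), by ETS factors such as GABP, and by YY1. RefSeq promoter sequences (GRCm38.p6, 250 bases before to 50 after the start) were found for 42 of the 51 genes. The words searched on both strands were GCGCATGC or TGCGCATG for NRF1, which overlap within a site, CCGGAAG for ETS and AAGATGGC for YY1. The NRF1 word stood in 7 of these 42 genes (16.7%), against 3.72% of all 27025 genes in the table and 7.42% of the 4000 with a measured signal here. The ETS word stood in 17 (40.5%), against 9.93% and 20.3%, and the YY1 word in 7 (16.7%), against 3.19% and 5.97%. Some of these 42 genes were not measured. Among the 30 that were, which are the ones to set beside the measured genes, the shares were 20% (NRF1), 33.3% (ETS) and 20% (YY1). The 120 bases before the start are printed for 4 of the 5 genes at least 2-fold lower in D351, for Sdhaf4, the 1 gene at least 2-fold higher, and for Mrpl32, which has repeated NRF1 words, so that their promoters can be compared. They read 5′ to 3′ in the direction of the gene, and capitals mark a match to an NRF1 or ETS word.
Mrpl47 (chr3:32736756-32736875, minus strand): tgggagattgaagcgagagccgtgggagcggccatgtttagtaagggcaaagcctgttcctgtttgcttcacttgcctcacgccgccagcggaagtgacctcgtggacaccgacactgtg
Mrps27 (chr13:99344666-99344785, plus strand): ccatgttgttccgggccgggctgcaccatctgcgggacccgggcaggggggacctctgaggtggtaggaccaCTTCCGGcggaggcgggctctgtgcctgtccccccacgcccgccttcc
Mrpl32 (chr13:14613038-14613157, minus strand): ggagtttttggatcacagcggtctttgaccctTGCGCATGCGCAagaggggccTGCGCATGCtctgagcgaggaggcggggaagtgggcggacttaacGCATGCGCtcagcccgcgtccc
Sdhb (chr4:140961151-140961270, plus strand): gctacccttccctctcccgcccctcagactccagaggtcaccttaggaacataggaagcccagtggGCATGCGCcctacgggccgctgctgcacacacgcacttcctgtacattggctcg
Timm50 (chr7:28312047-28312166, minus strand): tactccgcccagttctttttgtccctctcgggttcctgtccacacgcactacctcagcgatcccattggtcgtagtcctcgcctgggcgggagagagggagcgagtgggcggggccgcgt
Sdhaf4 (chr1:24005641-24005760, minus strand): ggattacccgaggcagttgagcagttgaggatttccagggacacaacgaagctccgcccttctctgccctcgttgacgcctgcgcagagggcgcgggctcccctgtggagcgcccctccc

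The capitals in Mrps27 are an ETS word, and those in Mrpl32 and Sdhb are NRF1 words. None of the searched words lies in these windows for Mrpl47, Timm50 or Sdhaf4. Past the start, not printed, Mrps27 and Timm50 also held the YY1 word and Sdhb the ETS word. Among the 30 measured members with a promoter, the 6 with an NRF1 word had a median log2 ratio of D351 over D16 of -0.72 and the others -0.28. The split was -0.74 against -0.21 for the 6 with a YY1 word, -0.40 against -0.28 for the 10 with an ETS word and -0.55 against -0.09 for the 16 with any of these words. Over all 4000 measured genes with a promoter the medians with and without an NRF1 word were -0.06 and 0.00. They were -0.0098 and -0.0042 for the YY1 word, -0.0149 and 0.0000 for the ETS word, and -0.0162 and 0.0000 for any word. The splits overlap, as genes such as Mrpl32, with NRF1 words and an upstream YY1 word outside its printed window, count in several. A match describes the letters only.

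Signals are intensities on a linear scale, as deposited. A floor of 16.8, the 50th percentile of both arrays together, replaced lower values before a ratio was taken, so where only 1 clone reached it the ratio is a bound. A gene was represented by its measured probe set with the highest mean signal. Of the 51 genes 36 reached the floor on at least 1 array and 30 on both. The other 15 were under it in both clones, with no signal above 13.7, and have no ratio. Signals summed to 653854 in D16 and 646285 in D351. For a gene with several measured probe sets, the SD of the difference between the brightest pair was 0.71 over 1113 genes, or 0.50 per probe set, which covers probe design only.

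Most measured members read lower in D351 than in D16, and the shift was modest and spread over the genes. Relative to the median of all 4922 measured genes the member median was -0.38 on the log2 scale. With D351 scaled to bacterial control probe sets instead, the member median was 0.060 and that of all genes 0.46, a gap of -0.40. That scaling multiplies all D351 signals by the same factor. Gaps to all genes, here and below, can therefore change under it only through the floor. As deposited, the member median was -0.39 (1.31-fold lower in D351) and that of all genes -0.01. A ratio below 0 was found in 28 of 36 members (77.8%), against 50.7% of all measured genes. For the 6 members that reached the floor in 1 clone, the sign is that of the deposited signals, 1 of which is under the floor, and the size is a bound. Of the 30 that reached the floor in both clones 24 were below 0 (80.0%), against 51.3% of all such genes, with medians of -0.43 and -0.02. At least 1.5-fold lower were 13 members (36.1%), against a background of 20.4%, and at least 1.5-fold higher were 2 (5.56%), against 19.3%. At least 2-fold lower were 5 (13.9%), against 8.57%, and 1 was at least 2-fold higher, against 9.49% of all genes. The gap between members and background was thus wider in counts past 1.5-fold than past 2-fold. Ratios of 14 members lay below 0 by more than the 0.50 of a single probe set, and those of 2 lay above 0 by more than that, against 23.8% and 22.2% of all measured genes.

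**Figure D1:**
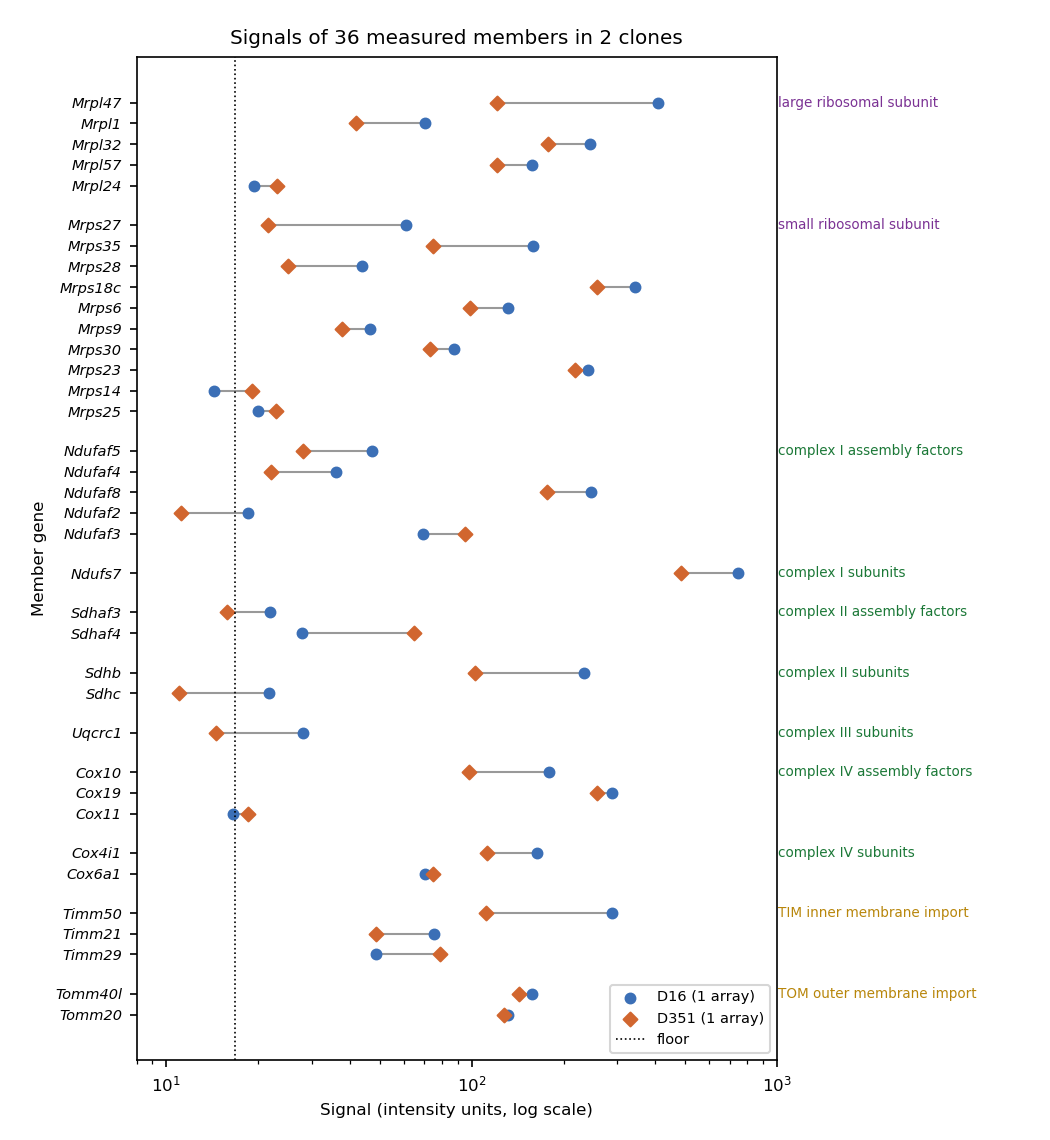
Signals in intensity units (log axis) of the 36 measured members, grouped by complex, with circles for D16 and diamonds for D351 (1 array each, no error bars) and a dotted line at the floor of 16.8. The D351 diamond lies left of the D16 circle for 28 of 36 genes as deposited (16 of 36 with scaling to bacterial controls), with the widest gap for Mrpl47.

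The mitochondrial ribosome had 24 genes on the array, of which 15 were measured and 12 had a ratio below 0. Their median log2 ratio was -0.41, which was -0.39 relative to all genes and -0.34 relative to all genes with scaling to the bacterial controls, where the median itself was 0.12. In this group 3 genes were at least 2-fold lower in D351 and 0 were at least 2-fold higher, against 8.57% and 9.49% of all genes. With scaling to the bacterial controls Mrpl47 alone of the 3 stayed past 2-fold, with Mrps27 at -0.98 and Mrps35 at -0.56. Mrpl47, a large subunit protein near the exit of the nascent chain tunnel, read 407.2 in D16 and 120.9 in D351 (3.37-fold, log2 -1.75). Its second probe set was at 4.0 and 3.9, under the floor in both clones, so the Mrpl47 ratio rests on 1 probe set. Mrps27, a small subunit protein with pentatricopeptide repeats, read 60.8 and 21.5 (2.83-fold). Its other probe set, with an _r ending for a design under relaxed rules, read 36.2 and 21.3 (log2 -0.77), in the same direction with a smaller difference. Mrps35, another small subunit protein, read 158.9 and 74.9 (2.12-fold, log2 -1.09).

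Genes were assigned to a subunit by name. With a large subunit name (Mrpl) 4 of 5 measured genes had a ratio below 0, with a median of -0.45. Mrpl1, a protein of the stalk beside the transfer RNA exit site, read 70.6 in D16 and 42.0 in D351 (log2 -0.75), and its second probe set read 35.2 and 20.0 (log2 -0.82). Both Mrpl1 probe sets therefore gave nearly the same ratio. Mrpl32 read 243.7 and 178.1 (log2 -0.45), and Mrpl57 read 158.2 and 121.5 (log2 -0.38). Mrpl24 was the member of the large subunit above 0, at 19.4 and 23.0 (log2 0.25), from a probe set ending in _f, as probe sets that can also match related transcripts do. The large subunit genes Mrpl19, Mrpl39, Mrpl48 and Mrpl53 were under the floor in both clones.

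With a small subunit name (Mrps) 8 of 10 measured genes had a ratio below 0, with a median of -0.35. Mrps28 read 43.8 in D16 and 25 in D351 (log2 -0.81, from an _f probe set). Mrps18c read 342.2 and 256.7 (log2 -0.41) and Mrps6 read 131.2 and 99.0 (log2 -0.41). Differences below the 0.50 of a single probe set were also found for Mrps9, at 46.5 and 37.8, and for Mrps30, at 87.6 and 73.3. Mrps30 carries a small subunit name but sits in the large subunit of the mammalian ribosome. It is counted here by its name, so the medians by name do not compare the 2 subunits themselves. The Mrps23 probe sets disagreed in direction, with 240.3 and 218.8 on one (log2 -0.14) and 138.2 and 167.1 on an _f probe set (log2 0.27). Mrps14, at 14.4 and 19.1 (log2 of at least 0.19), and Mrps25, at 20.0 and 22.9 (log2 0.20), were the small subunit genes above 0 and close to the floor. Mrps5, Mrps12, Mrps15, Mrps33 and Mrps34 were under the floor in both clones.

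**Figure D2:**
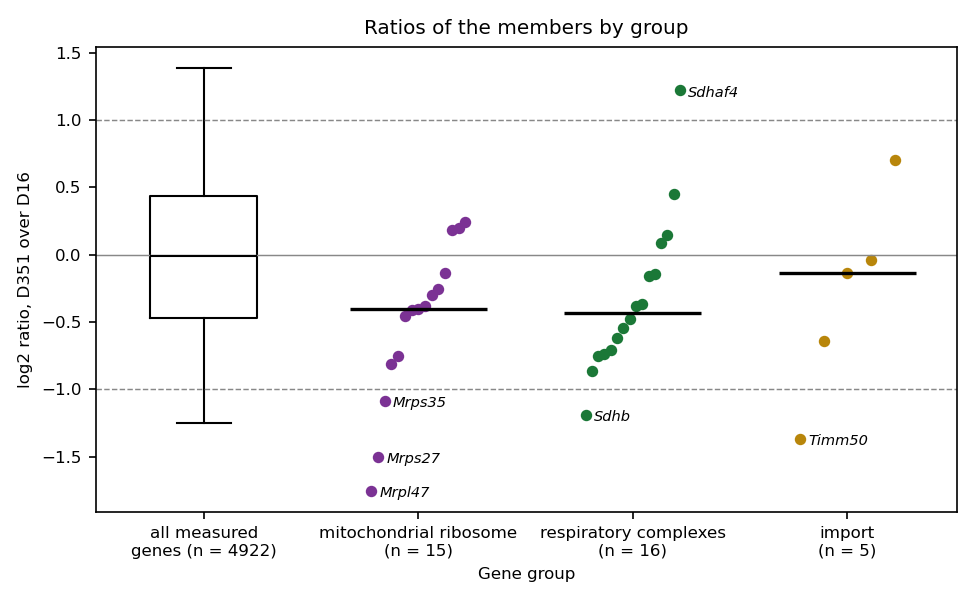
Log2 ratios of D351 over D16 as deposited for all 4922 measured genes (box from the 25th to the 75th percentile, whiskers at the 5th and 95th) and for each measured member by group, with a thick line at the group median and dashed lines at 2-fold. Medians are -0.41 for the ribosome, -0.43 for the respiratory complexes and -0.14 for import, against -0.01 for all genes; with scaling to bacterial controls they are 0.12, -0.059 and 0.39 against 0.46.

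Respiratory complexes had 19 genes on the array, 9 for subunits and 10 for assembly factors, and 16 were measured. Of these 12 had a ratio below 0, and the median log2 ratio was -0.43, which was -0.42 relative to all genes and -0.52 relative to all genes with scaling to the bacterial controls, where the median itself was -0.059. For 4 of these 12 (Ndufaf2, Sdhaf3, Sdhc and Uqcrc1), and for Cox11 above 0, 1 clone was under the floor. Their signs thus rest on a signal under the floor, and their sizes are bounds. Of the 11 that reached the floor in both clones 8 were below 0, with a median of -0.55. Past 2-fold were 1 gene lower in D351, Sdhb, and 1 higher, Sdhaf4, both of complex II, against 8.57% and 9.49% of all genes, and with scaling to the bacterial controls Sdhb was at -0.67. No Atp5 gene was among the members, so complex V was not examined. The 6 measured subunit genes had a median of -0.58 with 5 below 0, and the 10 assembly factors -0.27 with 7 below 0. Among genes at the floor in both clones the medians were -0.58 over 4 subunits and -0.48 over 7 assembly factors, so the gap was smaller, and it was not tested.

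Complex II oxidises succinate and is the complex whose subunits are all nuclear-encoded. The signal of Sdhb, which carries the iron-sulfur clusters, was 233.9 in D16 and 102.6 in D351 (2.28-fold, log2 -1.19). The membrane anchor subunit Sdhc read 21.7 and 11.0 on an _f probe set, a log2 ratio of at most -0.37. Sdhaf4, which helps to assemble the flavin-bearing catalytic subunit, went the other way, at 27.8 in D16 and 64.7 in D351 (2.33-fold, log2 1.22). Sdhaf3, which acts on the iron-sulfur subunit, read 21.9 and 15.8, a log2 ratio of at most -0.38. Of the 4 complex II genes, Sdhaf4 was thus the one with the higher signal in D351. Sdhb lies on chromosome 4, where the median of all 295 measured genes was -0.34, and taking that off left -0.85. That median includes the genes between Acer2 and Svbp, a stretch that does not hold Sdhb, and a median without them was not taken.

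For complex I, which accepts electrons from NADH, 1 of 3 subunit genes and 5 of 5 assembly factors were measured. Ndufs7, the iron-sulfur subunit next to the ubiquinone site, read 744.4 in D16 and 485.4 in D351 (1.53-fold, log2 -0.62). Genes of its chromosome 10 had a median of 0.35, and relative to them Ndufs7 was at -0.97. Ndufaf5, which hydroxylates an arginine of Ndufs7, read 47.2 and 28.0 (log2 -0.75), and its partner Ndufaf8 read 245.9 and 176.3 (log2 -0.48). Ndufaf3 and Ndufaf4 act together early in complex I assembly but had ratios on opposite sides of 0. Ndufaf3 read 69.6 and 95.3 (log2 0.45), whereas Ndufaf4 read 36.1 and 22.1 (log2 -0.71). Ndufaf2, a late assembly factor, read 18.6 and 11.2 on an _r probe set, a log2 ratio of at most -0.15. Ndufs3 and Ndufab1 were under the floor in both clones.

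Complex III was represented by Uqcrc1, a core subunit, on an _f probe set with 28.0 in D16 and 14.6 in D351, at least 1.67-fold lower in D351. In complex IV, which hands electrons to oxygen, Cox10 makes the heme A precursor and was measured by 2 plain probe sets. They read 178.7 and 98.3 (log2 -0.86) and 178.6 and 92.6 (log2 -0.95), and the Cox10 ratios thus lay closer together than those of the median pair of all genes (0.41 apart). Among the structural subunits Cox4i1 read 164.2 and 112.5 (log2 -0.55) and Cox6a1 read 70.5 and 74.7 (log2 0.08), both on _f probe sets. The copper-handling assembly factor Cox19 was close to equal, at 287.7 and 258.1 (log2 -0.16), and its other 2 probe sets were under the floor. Cox11, which delivers copper to complex IV, read 16.6 and 18.6 on an _r probe set, a log2 ratio of at least 0.15, and Cox6b1 was under the floor in both clones.

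Import had 8 genes on the array and 5 measured, too few for more than single values. The median log2 ratio was -0.14, which was -0.13 relative to all genes and -0.07 relative to all genes with scaling to the bacterial controls, where the median itself was 0.39. It moved to -0.39 with the floor at the 25th percentile (4.6). Timm50, the receptor of the TIM23 complex for incoming presequences, read 289.2 in D16 and 111.9 in D351 (2.58-fold, log2 -1.37, or -0.85 with scaling to the bacterial controls). Timm21, which links the TIM23 and TOM complexes, read 75.6 and 48.5 (log2 -0.64). Timm29, a subunit of the TIM22 complex that inserts carrier proteins, was higher in D351 on both its probe sets, at 48.6 and 79.0 (log2 0.70) and at 21.4 and 28.7 (log2 0.42). The outer membrane genes were close to equal in the 2 clones. Tomm20, a receptor of the TOM complex, read 131.2 and 127.4 (log2 -0.04), and Tomm40l, a relative of the pore subunit, read 157.2 and 143.0 (log2 -0.14). Tomm7, Timm44 and Timm10b were under the floor in both clones.

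**Figure D3:**
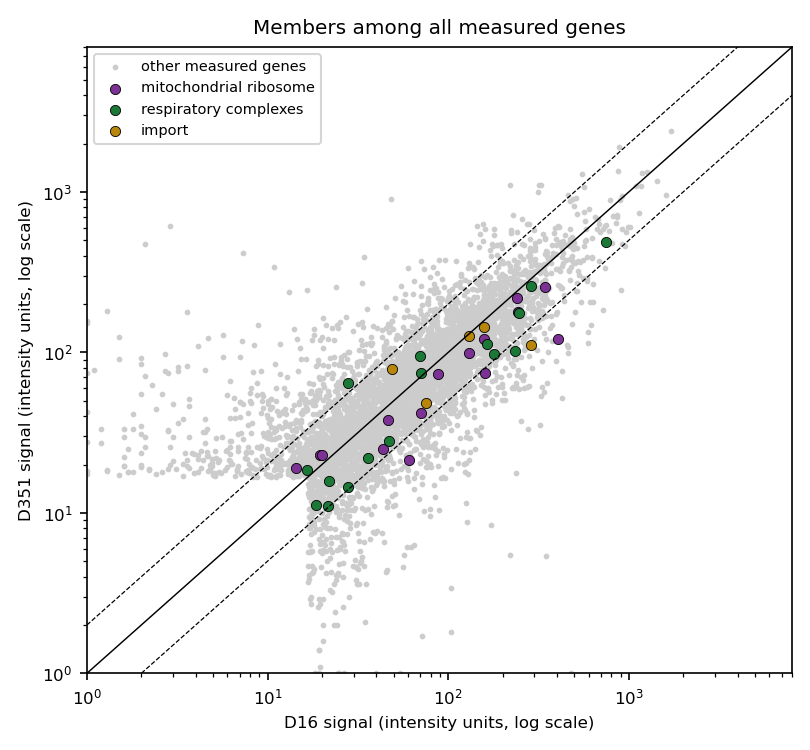
Signals in D16 (x axis) and D351 (y axis), both in intensity units on log axes, for the measured members (coloured by group) and all other measured genes (grey); values under 1 are drawn at 1, the solid line marks equality and dashed lines 2-fold. Members lie mostly below the line of equality as deposited (28 of 36; 16 of 36 with scaling to bacterial controls), inside the cloud of the other genes.

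Where 2 probe sets of a member were measured, the ratios had the same sign in 4 of 5 genes (Mrpl1, Mrps27, Cox10 and Timm29), with Mrps23 as the exception. Over all 1113 such genes the signs matched in 771. The median absolute difference within a pair was 0.28 for the members and 0.41 for all genes.

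The measured members lay on 15 chromosomes and 0 were on the X chromosome. Medians of all genes differed between chromosomes, so each member was also set against its own chromosome. With the chromosome median taken off, 27 of 36 members remained below 0 and the member median was -0.38. Mrpl47 (-1.85), Mrps27 (-1.43), Mrps35 (-1.27) and Timm50 (-1.15) still passed 2-fold, and Sdhb did not. The chromosome 4 median taken off Sdhb includes the genes between Acer2 and Svbp.

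Other mitochondrial genes, taken from lists set by function, were mostly below 0 as deposited, with medians from -0.24 to -0.50 over 6 lists, whereas with scaling to the bacterial controls those medians ran from 0.04 to 0.29, each under the 0.46 of all genes. Of 17 measured genes for mitochondrial translation factors and transfer RNA synthetases 12 were below 0 (median -0.28), with 3 at least 2-fold lower in D351 and 0 higher, against 50.7%, 8.57% and 9.49% of all genes. Of the 15 that reached the floor in both clones 10 were below 0 and 2 at least 2-fold lower, against 51.3% and 8.44% of all such genes. Mars2, the mitochondrial methionyl-tRNA synthetase, read 75.5 in D16 and 21.1 in D351 (3.58-fold), and its second probe set gave a bound of -0.14 or lower on the log2 scale. Vars2, the valyl enzyme, read 99.4 and 45.8 (2.17-fold), and Ears2, the glutamyl enzyme, read 35.6 and 12.5 (at least 2.12-fold), under the floor in D351. Mrrf, which recycles mitochondrial ribosomes, read 123.9 and 62.8 (log2 -0.98). For mitochondrial DNA and transcription 7 of 10 were below 0 (median -0.47), and Mgme1, a nuclease for mitochondrial DNA, read 71.6 and 35.7 (2.01-fold) on an _s probe set.

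Further respiratory chain and assembly genes (23 measured, median -0.25) had 16 below 0, 5 at least 2-fold lower in D351 and 0 at least 2-fold higher. The shares of all genes were 50.7%, 8.57% and 9.49%. Of the 20 that reached the floor in both clones 13 were below 0 and 3 at least 2-fold lower, against 51.3% and 8.44% of all such genes. Coa7, a complex IV assembly factor, read 330.3 and 60.9 (5.42-fold), and the inner membrane protease Oma1 read 77.4 and 22.7 (3.41-fold). Both lie between Acer2 and Svbp on chromosome 4, as does Atpaf1, and without these 3 genes the median was -0.16 with 3 past 2-fold. These 3 were Coq5 of ubiquinone synthesis (at least 2.56-fold), Cmc2 (at least 2.26-fold) and Nubpl, which supplies iron-sulfur clusters to complex I (2.11-fold). Among further import, protease and chaperone genes (11 measured, median -0.34) 8 were below 0, against 50.7% of all genes, and 0 passed 2-fold on the chosen probe set. Spg7, a subunit of an inner membrane protease, had log2 ratios of -0.50 and -1.66 on its 2 probe sets. Of 8 measured genes of the TCA cycle and pyruvate handling 7 were below 0 (median -0.50), and 5 of 5 that reached the floor in both clones, against 50.7% and 51.3% of all genes. They included Cs, the citrate synthase, at 60.0 and 36.6 on an _f probe set, and Pdk2, an inhibitory kinase of pyruvate dehydrogenase, was above 0, at 15.8 and 32.2.

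**Figure D4:**
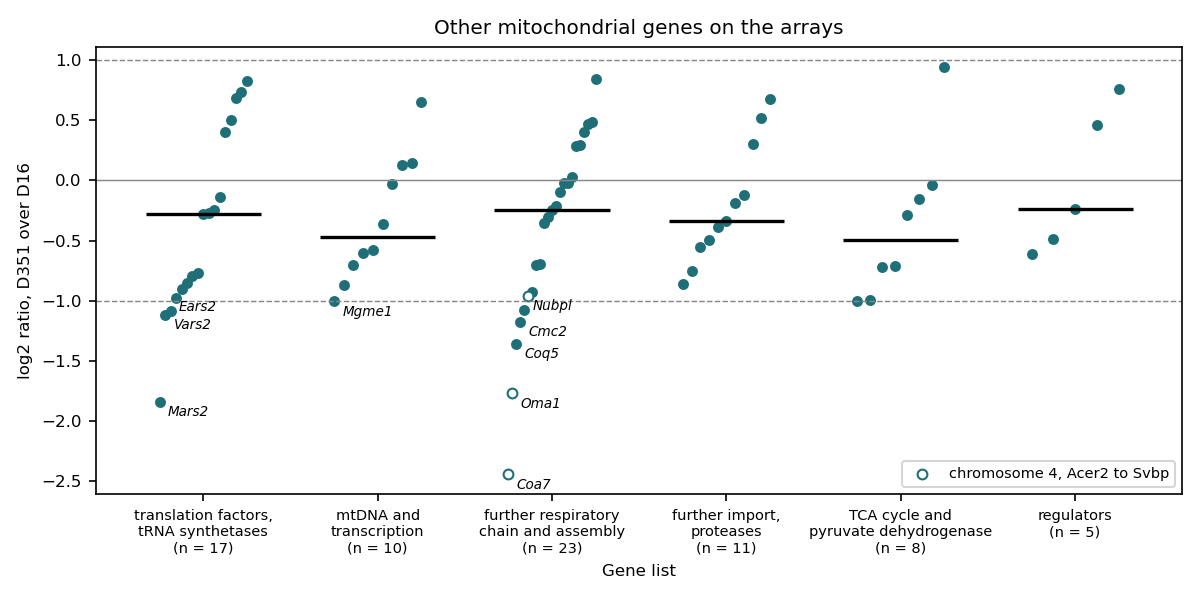
Log2 ratios of D351 over D16 as deposited for measured genes of 6 further mitochondrial lists, with a thick line at each median, dashed lines at 2-fold and open circles for genes between Acer2 and Svbp on chromosome 4. Medians run from -0.24 to -0.50, and from 0.04 to 0.29 with scaling to bacterial controls, against 0.46 for all genes.

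Of 9 regulators of mitochondrial genes on the array 5 were measured, and 0 passed 2-fold in either direction, against 8.57% of all genes lower and 9.49% higher. Nrf1, the factor of the NRF1 word, had 4 measured probe sets with log2 ratios of -0.49, -0.70, -0.65 and -0.09. Ppargc1a and Ppargc1b, coactivators of mitochondrial biogenesis, and Gabpa, the ETS subunit of GABP, were under the floor in both clones. Sirt1, a deacetylase of such coactivators, read 33.1 in D16 and 56.1 in D351 (log2 0.76).

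Other features of the 2 arrays differed together with these genes, and their part in the result was not tested. Of 23 proliferation genes 7 were measured and 6 were at least 2-fold lower in D351 (median log2 -1.80), against 8.57% of all genes. The 7 signals summed to 1012.9 in D16 and 315.4 in D351. Of 18 markers of embryonic fibroblasts, the feeder cell type, 6 were measured and 5 were at least 2-fold higher in D351, against 9.49% of all genes. Tcf4 was 2.65-fold lower, at 544.8 and 205.6. The 6 signals summed to 997.2 and 2454.2. The proliferation and fibroblast lists were chosen with earlier results of these data known. Their counts beside the shares of all genes are therefore descriptions and not support. Smooth muscle markers (3 of 11 measured) summed to 932.8 and 1541.7, with Cald1 at 874.9 and 1357.6, Mylk at 21.1 and 148.5 and Myh11 at 36.8 and 35.6. The other 4 on the array, Myocd, Actg2, Kcnmb1 and Synpo2, were under the floor in both clones. Endothelial Flt1 read 10.3 and 44.5, and Eng of the same list was under the floor in both clones. Cd44 and Runx1, listed for blood, summed to 1209.9 and 1153.6, of which Cd44 made up 1164.5 and 1092.5. The pericyte marker Cspg4 read 83.3 and 26.1, whereas Rgs5 and Abcc9 of its list were under the floor in both clones. Met, listed for skeletal muscle, read 259.8 and 121.5. Of 9 bacterial control probe sets that reached the floor 8 were brighter in D16, by 1.44-fold at the median. The 3′ to 5′ signal ratio, a sign of RNA integrity, was 1.41 in D16 and 1.09 in D351 for Gapdh and 1.57 and 1.30 for beta-actin. It was 4.68 and 3.16 for pyruvate carboxylase, whose 5′ signals were under the floor on both arrays. For the transferrin receptor, with all signals under the floor, it was 2.32 and 2.0. In such bulk RNA, fewer cells of a type and less RNA per cell cannot be told apart.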

How the data were processed

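Total RNA of 2 mesoangioblast clones was measured on 1 Affymetrix U74B array each. The deposited intensity values are linear signals, 1 per probe set. Their background correction and software are not given in the sources used here, and the authors' scaling is known only from the values: means after trimming 2% at each end were 40.01 on both arrays. A difference shared by all transcripts would therefore not be seen. Values were used as deposited. Leaving out 66 controls, 10581 probe sets had 1 symbol in GEO's platform annotation, 178 several and 1652 none; 10550 matched RefSeq gene identifiers (GRCm38.p6). Log2 ratios used a floor of 16.8, and genes the measured probe set of highest mean signal. With 1 array per clone no test was possible, and the number of arrays limits the precision. Named with signals were members past 2-fold, the brightest and most extreme of each class and those with several measured probe sets, and from other lists genes past 2-fold; the other members, Mrrf, Cs, Pdk2, Spg7, Atpaf1, regulators and glycolysis genes were added after their values were seen. Members and lists were chosen with earlier results of these data known. Alternatives were other scalings, floors, fold rules, probe set choices and chromosome adjustments; scaling to bacterial controls was added after seeing the data. The ratio step was tested on simulated data. Loess (span 0.3) came from statsmodels 0.14.6, ranks from scipy 1.17.1 and tables from pandas 2.3.3, under Python 3.11.15.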

Additional observations from a re-analysis of the deposited data

How the results depend on the processing

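With common median scaling, quantile normalization, loess correction, a floor on both arrays, the median over probe sets, plain probe sets, chromosome medians taken off, and chromosome 4 left out, the 4 group medians moved by under 0.2 and the counts past 2-fold by no more than 1.5 times. With the floor at the 25th percentile the import median moved to -0.39, and with the floor at the 75th (53.5) 0 members stayed 2-fold higher in D351, because Sdhaf4 is then a bound. By the 1.5-fold rule 13 members were lower and 2 higher in D351, and by the 3-fold rule 1 and 0. Scaling to the bacterial controls, added after seeing the data, shifted the median of all genes to 0.46 and the member medians to 0.060 in all, 0.12 for the ribosome, -0.059 for the respiratory complexes and 0.39 for import, with 1 member 2-fold lower (Mrpl47) and 2 higher (Sdhaf4 and Timm29). That scaling multiplied every D351 signal by 1.44, so a move past the probe set SD of 0.50 was fixed in advance except where the floor acted. Under it 32 of 36 single members moved by more than 0.50 and 12 changed sign (Mrpl32 to 0.07 and Mrps18c to 0.11, for example). Of these 12, 0 had passed 2-fold, and a shift of this size could not reverse such a ratio. Under the 10 other alternatives 328 of 332 values of single members moved by less than 0.50, and 2 changed sign, Mrps23 with the median over probe sets and Tomm20 with chromosome medians taken off. Part of that tally was fixed in advance, because leaving out chromosome 4 cannot change the value of a remaining gene. The floor on both arrays and the probe set choices can do so only for genes with several probe sets. No paired analysis was possible because each clone has 1 array, and for the same reason no replicate could be left out. Signals near the floor, as for Mrps14, Mrps25 and Cox11, limit what their ratios show.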

Other observations

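Genes outside mitochondria gave a few values beside the members. Of 6 glycolysis genes on the arrays outside the controls 3 were measured, all past neither 1.5-fold nor 2-fold. Pfkfb2 read 27.3 in D16 and 36.4 in D351, Pfkfb4 34.4 and 36.4, and the lactate transporter Slc16a3 17.6 and 16.8. Gapdh, a glycolytic enzyme carried as a control, read 4670.4 in D16 and 3013.0 in D351 on its 3′ probe set. On its 5′ probe set Gapdh read 3310.4 and 2770.3. The 3′ control of beta-actin read 5859.5 and 4488.9. The only cytosolic ribosomal protein gene named here, Rpl27, read 21.1 and 4.2. A probe set shared by Ndufb4 and its relatives Ndufb4b and Ndufb4c, which encode a complex I subunit, read 38.9 and 46.1, and those shared by Ndufa11 and Ndufa11b and by Ndufs6 and Ndufs6b were under the floor in both clones.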
